A study of Mus musculus with 10 samples.

Results

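The Toll-like receptor and NF-kB genes described here were 41 of the 24391 gene names in the count tables, taken wherever a gene name equalled an entry of a fixed list of receptors, chaperone and co-receptors, adaptors, kinases, NF-kB factors and inhibitors. They were measured by RNA sequencing of whole bilateral hippocampi, 1 library per mouse, taken from male C57BL/6J mice (spelled C56BL/6J in the methods), 10 to 14 weeks old and given no drug treatment apart from isoflurane anesthesia for surgery, on day 4 after the operation. In SAH mice (n = 4), a filament advanced through the carotid artery perforated the circle of Willis on 1 side, which gives a subarachnoid hemorrhage, and only mice whose cerebral blood flow fell at perforation were kept. In the Sham group (n = 3) the filament was pushed to the resistance point without a puncture, and Naive mice (n = 3) had no surgery. Sham and Naive mice together (n = 6) are called control mice, as the study pooled them. SAH was set against control to ask how hippocampal gene expression differs once blood has reached the brain surface, and against Sham and Naive mice apart. SAH against Sham differs by the puncture, whereas SAH against Naive holds the surgery and the bleed together.

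Toll-like receptors recognize microbial products and molecules released by injured cells. TLR1, TLR2, TLR4, TLR5 and TLR6 act at the cell surface, whereas TLR3, TLR7, TLR8, TLR9, TLR11, TLR12 and TLR13 reach the endosome with the help of the chaperone UNC93B1. Receptors recruit the adaptors MyD88 or TRIF, IRAK kinases and the ligase TRAF6, and the IKK complex then marks IkB proteins for degradation, which releases NF-kB dimers into the nucleus. In the brain, microglia and border macrophages are the main cells known to carry these receptors, and several inhibitors of the pathway, Nfkbia and Tnfaip3 among them, are themselves NF-kB targets.

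Each mouse gave between 19743388 and 27254655 counts of read pairs, and 19538 gene names had a count. Hippocampal neuron markers (10 of 10 tested) summed to between 7506 and 8538 CPM (the count scaled to the same library total in every mouse) in control and between 7970 and 8755 CPM in SAH mice, and 0 of them were called. Among SAH mice, mouse 3 stood apart on the first principal component, and choroid plexus markers summed to 1244, 876 and 843 CPM in SAH mouse 3, SAH mouse 4 and Sham mouse 7, against 45.1 to 220.3 CPM in the other 7 mice. In SAH against control, member differences of over 0.20 on the log2 scale that moved by over 1.5 times without these 3 mice are therefore also given without them. In bulk tissue, fewer cells of a type and less RNA per cell cannot be told apart.

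Of the 41 genes, 39 passed the filter on low counts in SAH against control, and Tlr8 and Tlr11 did not. Expression of 3 genes rose in SAH: Unc93b1, Tlr13 and Tlr2 (adjusted p under 0.10, the study's threshold, by edgeR's quasi-likelihood test with Benjamini-Hochberg adjustment over all genes). No gene fell. Over all 14993 genes tested, 3.13% were called higher and 1.54% lower, 4.68% in all. The log2 fold change (also called log2 ratio) was above 0 in 36 of the 39 and ranged from -0.20 for Tnfaip3 to 0.96 for Tlr7, with a median of 0.20 against -0.0024 over all genes tested. An unadjusted p under 0.05 was reached by 11 genes, all higher, namely Tlr1, Tlr2, Tlr3, Tlr7, Tlr9, Tlr13, Unc93b1, Ly86, Ticam1, Tbk1 and Nfkbia, where 9.13% of all genes tested were higher and 7.87% lower at that threshold. DESeq2 called the same 3 genes as edgeR. Without SAH mice 3 and 4 and Sham mouse 7, the genes called were Unc93b1 and Tlr8 (which passed the filter there only through the SAH mice), and 26 of the 36 genes stayed above 0. All 4 SAH mice lay above all 6 control mice for Tlr1, Tlr3, Tlr13 and Unc93b1, where 2.83% of all genes tested did so, and they lay below for 0 genes, where 2.37% did.

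By role, the median log2 fold change was 0.35 over the 5 surface receptors, 0.42 over the 5 tested endosomal receptors, 0.30 over the chaperone and co-receptors and 0.26 over the 4 adaptors. It was 0.066 over the 10 kinases and ligase, 0.086 over the 5 NF-kB factors and 0.024 over the 5 inhibitors. These medians are descriptions, and no test compared the roles.

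**Figure D1:**
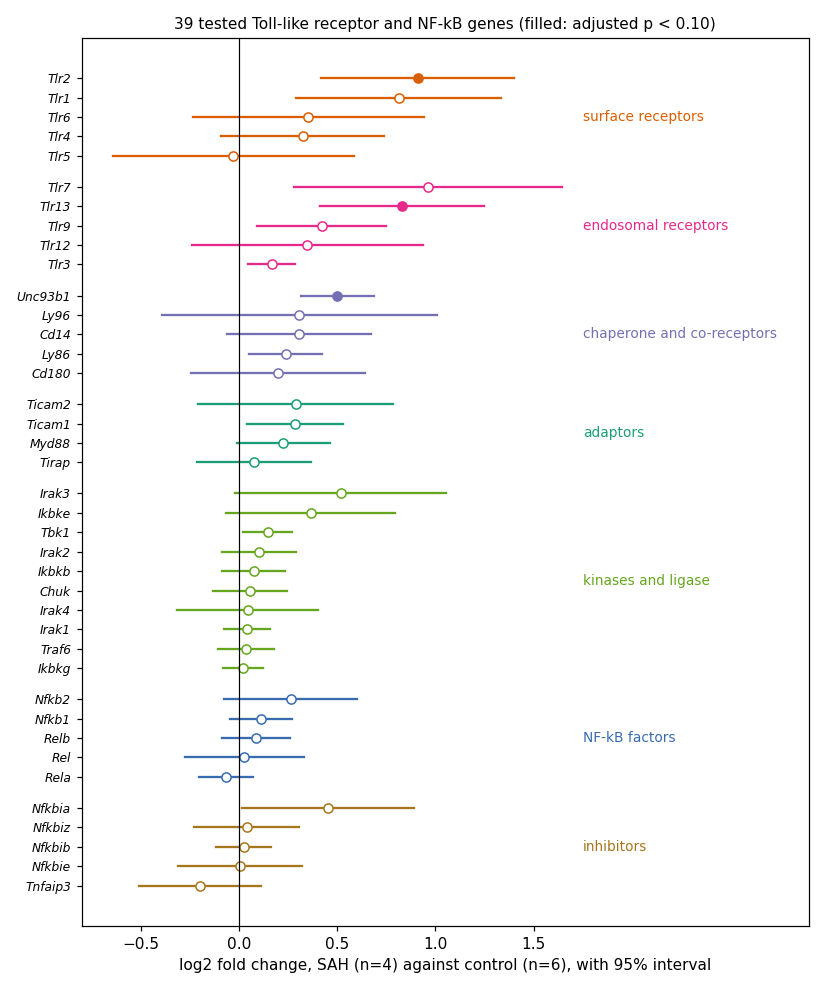
Log2 fold change of SAH (n = 4) against control (n = 6) for the 39 tested genes, grouped and coloured by role, with 95% intervals from edgeR; filled points passed an adjusted p of 0.10. The filled points are Tlr2 (0.91), Tlr13 (0.83) and Unc93b1 (0.50), whereas the points of the kinases, NF-kB factors and inhibitors lie mostly close to 0.

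Levels between genes were compared as CPM per kilobase of exon, averaged over the 10 mice. The most abundant genes were Tbk1 (18.5 CPM per kilobase), Nfkbia (16.1), Irak1 (13.7) and Ly86 (12.6). The IKK subunits Ikbkb (8.86), Chuk (8.15) and Ikbkg (7.24) and the transactivating factor Rela (7.41) were at similar levels, as was Unc93b1 (7.38). Among receptors Tlr3, a sensor of double-stranded RNA, was the most abundant at 4.56 CPM per kilobase, followed by Tlr7 (1.35) and Tlr13 (0.794). Tlr9, Tlr2 and Tlr4 lay between 0.476 and 0.518 CPM per kilobase, Tlr1, Tlr6, Tlr12 and Tlr5 between 0.152 and 0.206, and Tlr8 and Tlr11 at 0.0825 and 0.00524.

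**Figure D2:**
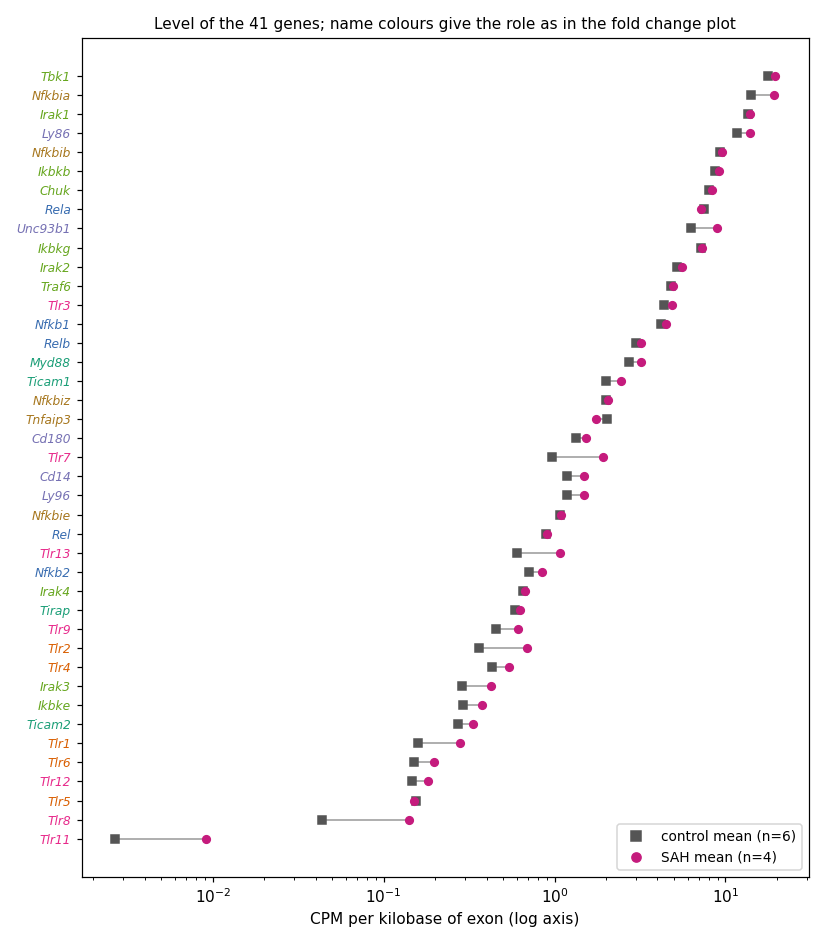
Mean level in control mice (squares, n = 6) and SAH mice (circles, n = 4) of the 41 genes in CPM per kilobase of exon on a log axis, ordered by the mean over all mice. Most receptors lie in the lower part of the range, with Tlr3 the highest of them, and the widest gaps between circle and square among the more abundant genes are those of Unc93b1 and Nfkbia.

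Unc93b1 encodes the membrane protein that carries nucleic acid-sensing receptors from the endoplasmic reticulum to endosomes, and it had the lowest adjusted p of the 39 genes. The gene lies on chr19 from 3935186 to 3949340 in mm9, on the plus strand. It had 14.8, 13.1 and 13.8 CPM in Naive mice, 13.1, 15.5 and 15.7 CPM in Sham mice, and 20.4, 17.5, 19.8 and 23.7 CPM in SAH mice 1 to 4. The groups did not overlap, with SAH mouse 2 the lowest of the SAH mice. Expression rose from a control mean of 14.3 ± 1.16 CPM (SD, n = 6) to a SAH mean of 20.3 ± 2.56 CPM (SD, n = 4), with the log2 ratio at 0.50 (SE, the standard error, 0.086, 95% interval 0.31 to 0.69, adjusted p = 0.00772 by edgeR). Leaving out SAH mice 3 and 4 and Sham mouse 7 gave 0.42 (adjusted p = 0.0255), and Unc93b1 kept its call with each mouse left out in turn. With Sham mice alone as control the log2 fold change was 0.46 (adjusted p = 0.263).

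Tlr13, a mouse receptor for bacterial ribosomal RNA that travels with UNC93B1, lies on chrX from 103338614 to 103355832 in mm9, on the plus strand. Counts were 53, 36 and 75 in Naive, 62, 59 and 69 in Sham and 73, 87, 117 and 118 in SAH mice 1 to 4. Scaled to depth, these were 1.85 to 3.18 CPM in control and 3.53, 3.20, 5.91 and 4.72 CPM in SAH mice. SAH mouse 2 was only just above Naive mouse 10, and mice 3 and 4 were the highest. Tlr13 rose with a log2 fold change of 0.83 (SE 0.19, 95% interval 0.42 to 1.25, adjusted p = 0.0387 by edgeR). It was 0.65 without SAH mouse 3 (adjusted p = 0.0855) and 0.78 without SAH mouse 4 (adjusted p = 0.129). Without SAH mice 3 and 4 and Sham mouse 7, which carried the most choroid plexus RNA, it was 0.51 (adjusted p = 0.357).

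Tlr2, which pairs with TLR1 or TLR6 at the cell surface to detect lipopeptides, lies on chr3 from 83640194 to 83645530 in mm9, on the minus strand. It was a low-count gene, with 19 to 34 counts in control and 41, 33, 46 and 58 counts in SAH mice 1 to 4. This gave 0.715 to 1.29 CPM in control and 1.98, 1.21, 2.32 and 2.32 CPM in SAH. SAH mouse 2 lay within the control range and the other 3 SAH mice above it. The log2 fold change was 0.91 (SE 0.23, 95% interval 0.42 to 1.40, adjusted p = 0.0528 by edgeR). The call was lost without Naive mouse 8 (0.82, adjusted p = 0.122), without SAH mouse 3 (0.82, adjusted p = 0.113) and without SAH mouse 4 (0.81, adjusted p = 0.171), and the value was 0.53 without SAH mice 3 and 4 and Sham mouse 7 (adjusted p = 0.546).

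Tlr1, the partner of TLR2, lies on chr5 from 65315919 to 65324797 in mm9, 19536 bases from Tlr6 on the same strand. It had 0.338, 0.309 and 0.509 CPM in Naive, 0.619, 0.478 and 0.644 CPM in Sham and 0.822, 1.03, 0.707 and 0.839 CPM in SAH mice. All 4 SAH mice were above all control mice, and 2 of the 3 Sham mice lay between the Naive and the SAH mice. The log2 fold change of 0.81 (SE 0.24) had an adjusted p of 0.101 by edgeR, just short of the threshold, and passed it without Sham mouse 7 (0.91, adjusted p = 0.0875). Tlr6, the other partner, had 0.393 ± 0.116 CPM (SD, n = 6) in control and 0.510 ± 0.0506 CPM (SD, n = 4) in SAH (log2 fold change 0.35, adjusted p = 0.540), and 0.22 without Sham mouse 7 or 0.14 without the 3 mice.

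Promoters are shown for Tlr2, Tlr13 and Tlr1, as the called receptors and the partner of TLR2. They are the 250 bases before the RefSeq start in GRCm38.p6, printed on the strand of the gene, with motif matches in capitals. The kB motif, the element bound by NF-kB, matched in a pair of overlapping positions in Tlr2, and GAGGAAGT, a core bound by the myeloid factor PU.1, matched before 1 of the 2 RefSeq starts of Tlr1, the one printed, and the other start had 0 matches. Tlr13 held no match to any motif searched.
Tlr2, chr3:83841609-83841858, minus strand: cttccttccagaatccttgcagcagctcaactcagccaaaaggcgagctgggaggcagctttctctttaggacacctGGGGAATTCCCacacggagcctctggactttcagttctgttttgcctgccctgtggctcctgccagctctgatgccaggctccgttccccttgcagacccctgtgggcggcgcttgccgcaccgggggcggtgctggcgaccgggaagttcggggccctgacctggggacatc
Tlr13, chrX:106143025-106143274, plus strand: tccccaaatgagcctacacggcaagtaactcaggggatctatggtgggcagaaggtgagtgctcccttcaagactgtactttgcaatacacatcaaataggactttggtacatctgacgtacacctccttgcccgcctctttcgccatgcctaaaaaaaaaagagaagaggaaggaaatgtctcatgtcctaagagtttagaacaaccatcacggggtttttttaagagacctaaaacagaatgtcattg
Tlr1, chr5:64933559-64933808, minus strand: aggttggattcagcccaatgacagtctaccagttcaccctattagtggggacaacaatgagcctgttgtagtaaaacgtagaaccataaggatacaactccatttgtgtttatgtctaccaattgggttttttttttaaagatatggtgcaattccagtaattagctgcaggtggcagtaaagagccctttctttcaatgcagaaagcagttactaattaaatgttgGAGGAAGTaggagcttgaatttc

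Of the 41 genes, 31 had a promoter in the RefSeq table, and Tlr4, Tlr7, Unc93b1, Cd14, Ly96, Ticam2, Ikbkb, Nfkb1, Relb and Nfkbiz were not matched. Both strands were searched. The kB motif was found in 8 of the 31 (25.8%), Tlr2, Tlr3, Irak1, Nfkb2, Rel, Nfkbia, Nfkbie and Tnfaip3, compared with 8.23% of 27025 genes. Of these 8, Tlr2 passed the test in SAH against control and the other 7 did not. GAGGAAGT was found in Tlr1, Tlr11 and Rel (9.68% against 2.79%). The interferon-response core, GAAA repeated after any 2 bases, was found in Tlr6, Tlr11 and Myd88 (9.68% against 3.46%), and the ETS-IRF composite, GGAA and GAAA with any 2 bases between, which can overlap it, in 0 of 31 against 2.68%. The AP-1 motif TGANTCA was found in Tlr9, Ikbkg, Nfkb2, Nfkbie and Tnfaip3 (16.1% against 7.82%). A match is a run of letters and not a shown binding site.

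Among the 5 endosomal receptors that passed the filter, Tlr7, a sensor of single-stranded RNA on chrX from 163742858 to 163768503 in mm9, had the largest log2 fold change and did not pass the test. It had 3.31 to 5.11 CPM in the 6 control mice and 5.27, 4.38, 15.9 and 4.96 CPM in SAH mice 1 to 4. SAH mouse 3, with 315 counts, was about 3 times the next SAH mouse, and SAH mice 2 and 4 lay within the control range. The log2 ratio came to 0.96 (SE 0.32, adjusted p = 0.137 by edgeR) with all mice and 0.33 (adjusted p = 0.334) without SAH mouse 3, whereas it passed the threshold without SAH mouse 1 (1.10, adjusted p = 0.0979) or SAH mouse 2 (1.16, adjusted p = 0.0599). It was 0.42 (adjusted p = 0.271) without SAH mice 3 and 4 and Sham mouse 7. Of its neighbours in SAH mouse 3, Prps2 stood at 39.6 CPM (36.1 to 40.9 CPM in the rest), Frmpd4 at 160.1 CPM (125 to 145 CPM in the rest), Tmsb4x at 852 CPM (673 to 780 CPM) and Tlr8 at 0.606 CPM (0.0376 to 0.532 CPM).

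Tlr8, the neighbour of Tlr7 at a distance of 41137 bases on the same strand, had 1 to 6 counts in control mice and 11, 12, 12 and 5 counts in SAH mice 1 to 4. SAH mouse 4 lay within the control range and the other 3 SAH mice above it. Without the filter on low counts its log2 ratio came to 1.63 (SE 0.43, adjusted p = 0.0619 by edgeR). Tlr8 then joined the called genes, and it was also called without SAH mice 3 and 4 and Sham mouse 7 (2.01, adjusted p = 0.0535), a fit whose filter it passed only through SAH mice 1 and 2, in which it is high. Tlr11 had between 0 and 2 counts in every mouse, too few to give a fold change.

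Tlr3 showed a small difference with a narrow spread. It had 17.8, 18.7 and 19.7 CPM in Naive, 19.0, 18.2 and 19.6 CPM in Sham and 21.2, 19.8, 21.6 and 21.9 CPM in SAH. The groups did not overlap, although SAH mouse 2 was only slightly above the highest Naive mouse, and the log2 ratio came to 0.17 (SE 0.055, adjusted p = 0.138 by edgeR), and 0.20 without SAH mouse 2 (adjusted p = 0.0886). Tlr9, the receptor for CpG DNA, had 1.58 ± 0.175 CPM (SD, n = 6) in control and 2.12 ± 0.331 CPM (SD, n = 4) in SAH, with 3 of 4 SAH mice above the control range (log2 fold change 0.42, adjusted p = 0.178). Tlr12, a receptor for profilin, had 0.467 ± 0.0444 CPM and 0.579 ± 0.245 CPM (log2 fold change 0.35, adjusted p = 0.547, and 0.13 without SAH mouse 4). The surface receptors Tlr4, which detects lipopolysaccharide and heme, and Tlr5, which detects flagellin, gave log2 fold changes of 0.32 (adjusted p = 0.422) and -0.028 (adjusted p = 0.972). Tlr4 was at 0.15 without SAH mouse 3 and 0.17 without the 3 mice.

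**Figure D3:**
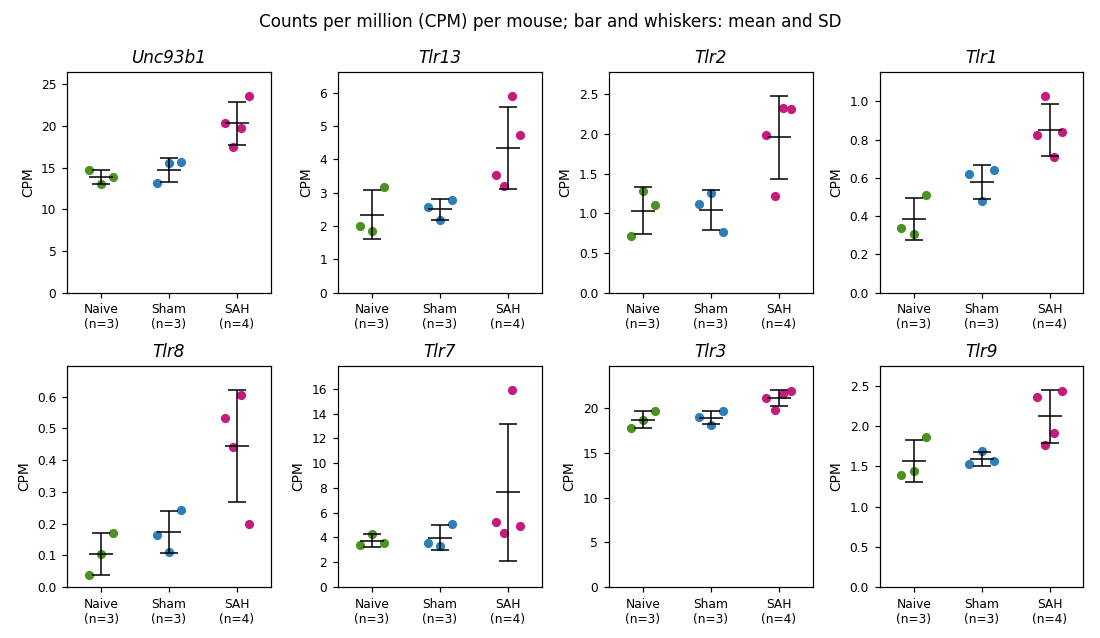
CPM in each mouse for Unc93b1 and 7 receptors, with Naive (n = 3), Sham (n = 3) and SAH (n = 4) mice as points and the mean and SD as bars; each axis starts at 0. All SAH points lie above all control points for Unc93b1, Tlr13, Tlr1 and Tlr3, and for Tlr7 SAH mouse 3 at 15.9 CPM lies far above the rest.

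The co-receptors of surface TLRs did not pass the test. Ly86, which encodes MD-1, had at most 13.5 CPM in control and 14.3, 12.5, 12.5 and 15.9 CPM in SAH mice 1 to 4, so that 2 SAH mice were above the control range (log2 fold change 0.24, adjusted p = 0.179 by edgeR). Cd180, which pairs with MD-1 on B cells and myeloid cells, gave a log2 ratio of 0.20 (adjusted p = 0.650), which ranged from 0.046 without SAH mouse 4 to 0.38 without SAH mouse 3. Cd14 and Ly96, which hand lipopolysaccharide to TLR4, had log2 fold changes of 0.30 (adjusted p = 0.391) and 0.31 (adjusted p = 0.660). Without SAH mice 3 and 4 and Sham mouse 7 the Cd14 value was 0.014 and the Ly96 value turned to -0.24, and Cd14 was at 0.14 without SAH mouse 3 alone. With each mouse left out in turn, Ly96 ranged from 0.021 to 0.50.

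Of the 4 adaptors 0 passed the test, with 1 (Ticam1) at an unadjusted p under 0.05 and 0 called by DESeq2. Myd88, the adaptor of most TLRs, had 5.21 ± 0.400 CPM (SD, n = 6) in control and 6.10 ± 0.967 CPM (SD, n = 4) in SAH, with 3 SAH mice above the control range (log2 fold change 0.23, adjusted p = 0.318 by edgeR, and 0.11 without SAH mouse 4). Ticam1, which encodes TRIF, had 5.68 ± 0.655 CPM and 6.92 ± 0.909 CPM (log2 fold change 0.29, adjusted p = 0.216, and 0.16 without the 3 mice). The bridging adaptors Ticam2 and Tirap had log2 fold changes of 0.29 (adjusted p = 0.553) and 0.078 (adjusted p = 0.801). All 4 values were above 0, apart from Ticam2 at -0.0089 without SAH mice 3 and 4 and Sham mouse 7, and 0 passed the threshold. With each mouse left out in turn, Ticam2 ranged from 0.048 to 0.39 and Tirap from 0.025 to 0.16.

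Of the 10 kinases and ligase, 0 passed the test, with 1 at an unadjusted p under 0.05, and DESeq2 called none of them. Tbk1, the kinase that phosphorylates IRF3 downstream of TRIF, had 50.0 to 55.3 CPM in control and 53.9, 55.5, 65.4 and 63.1 CPM in SAH (log2 fold change 0.15, SE 0.057, adjusted p = 0.212 by edgeR). SAH mouse 1 was within the control range, mouse 2 just above it, and mice 3 and 4 further above, and the value was 0.19 (adjusted p = 0.0928) without SAH mouse 1, 0.10 (adjusted p = 0.444) without SAH mouse 3 and 0.034 (adjusted p = 0.883) without SAH mice 3 and 4 and Sham mouse 7. Irak3, which restrains IRAK signalling, had 0.617 to 1.14 CPM in control and 1.79, 0.772, 1.41 and 1.04 CPM in SAH (log2 fold change 0.52, adjusted p = 0.313, and 0.30 without SAH mouse 1). Ikbke, a relative of Tbk1, gave a log2 ratio of 0.37 (adjusted p = 0.376). For the core of the cascade the values were close to 0, with 0.041 for Irak1, 0.10 for Irak2, 0.045 for Irak4, 0.037 for Traf6, 0.075 for Ikbkb, 0.057 for Chuk and 0.022 for Ikbkg. The 95% interval was -0.075 to 0.16 for Irak1 and -0.081 to 0.12 for Ikbkg.

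None of the 5 NF-kB factors passed the test, with 0 at an unadjusted p under 0.05 and 0 called by DESeq2. Rela, the main transactivating subunit, had 20.4 ± 1.14 CPM (SD, n = 6) in control and 19.6 ± 1.38 CPM (SD, n = 4) in SAH, with the log2 ratio at -0.064 (95% interval -0.20 to 0.073, adjusted p = 0.638 by edgeR). Nfkb1, the precursor of p50, had 17.2 ± 1.38 CPM and 18.6 ± 1.47 CPM, a log2 fold change of 0.11 (95% interval -0.046 to 0.27). Nfkb2, the precursor of p52 in the alternative pathway, had 1.91 to 2.67 CPM in control and 2.47, 2.54, 2.43 and 3.64 CPM in SAH. SAH mouse 4 alone was above the control range, and the log2 fold change was 0.26 (95% interval -0.075 to 0.60, adjusted p = 0.423). It was 0.099 without SAH mouse 4 and 0.11 without SAH mice 3 and 4 and Sham mouse 7. Relb and Rel had log2 fold changes of 0.086 (95% interval -0.087 to 0.26) and 0.028 (95% interval -0.27 to 0.33).

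None of the 5 genes that the fixed list groups as inhibitors passed the test, with 1 at an unadjusted p under 0.05 and 0 called by DESeq2. The effect of each on the pathway was not measured. Nfkbia, which encodes IkB-alpha and lies on chr12 from 56590396 to 56593634 in mm9, had 26.4, 28.1 and 16.9 CPM in Naive, 16.5, 20.6 and 24.5 CPM in Sham and 24.1, 26.3, 48.1 and 23.5 CPM in SAH. SAH mouse 3 was apart from the rest and the other 3 SAH mice lay within the control range. The log2 fold change was 0.45 (95% interval 0.015 to 0.89, adjusted p = 0.277 by edgeR), 0.16 (adjusted p = 0.71) without SAH mouse 3 and 0.22 (adjusted p = 0.699) without the 3 mice. Tnfaip3, which encodes the ubiquitin-editing enzyme A20, had 8.23 to 10.7 CPM in control and 9.28, 9.78, 5.10 and 7.99 CPM in SAH, with SAH mouse 3 the lowest of all mice (log2 fold change -0.20, 95% interval -0.51 to 0.11, adjusted p = 0.515). The Tnfaip3 value ranged from -0.31 to -0.037 with each mouse left out in turn, and turned to 0.056 without SAH mice 3 and 4 and Sham mouse 7. Nfkbib, Nfkbie and Nfkbiz had log2 fold changes of 0.024, 0.0063 and 0.041.

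**Figure D4:**
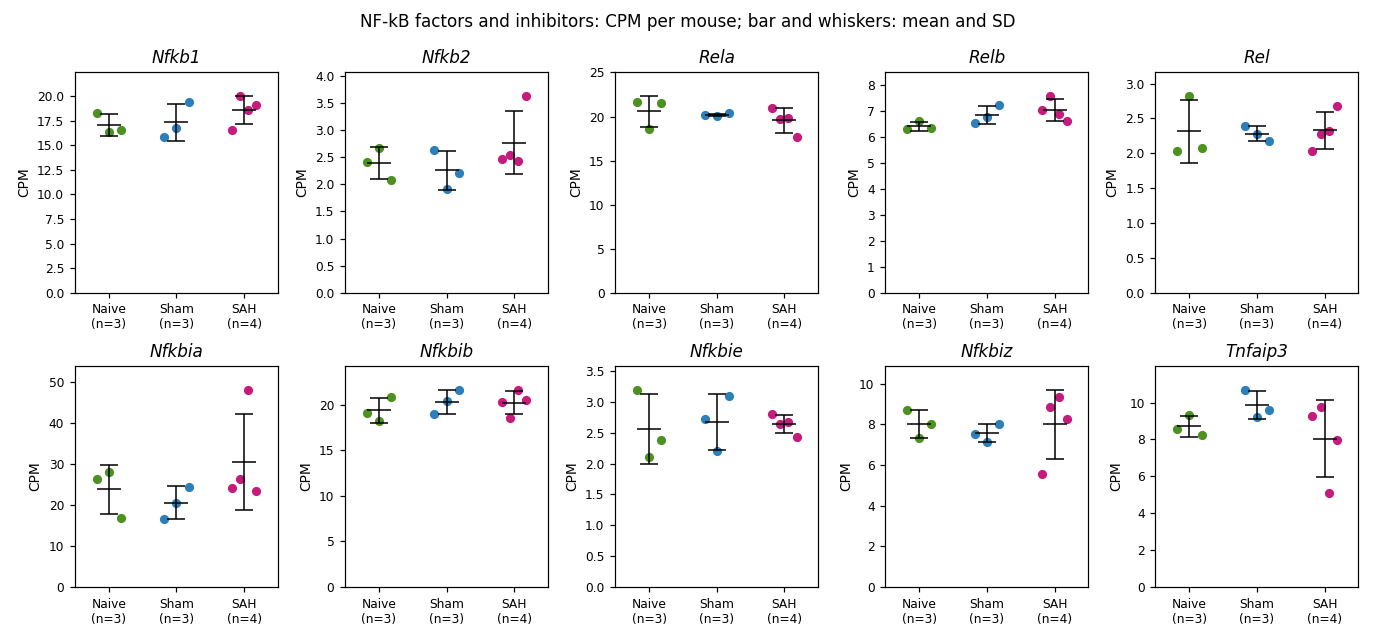
CPM in each mouse for the 5 NF-kB factors and the 5 inhibitors, with Naive (n = 3), Sham (n = 3) and SAH (n = 4) mice as points and the mean and SD as bars; each axis starts at 0. The groups overlap for all 10 genes, and SAH mouse 3 is the highest point for Nfkbia (48.1 CPM) and the lowest for Tnfaip3 (5.10 CPM).

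The 2 control groups were next compared with SAH apart, in a fit of the 3 groups in which 40 of the 41 genes were tested. Both comparisons use the same SAH mice. Against Sham mice 0 of the 40 genes were called, where 0.529% of all genes were called higher and 0.192% lower (0.72% in all). An unadjusted p under 0.05 was reached by 7 genes, all higher (Tlr2, Tlr3, Tlr7, Tlr8, Tlr13, Unc93b1 and Nfkbia), where 5.87% of all genes were higher and 3.83% lower at that threshold. Of the 7, Tlr8 passed the filter only through the SAH mice in which it is high, so it adds no support. DESeq2 called Unc93b1. The log2 fold changes against Sham were 0.46 for Unc93b1 (95% interval 0.23 to 0.69, adjusted p = 0.107 by edgeR), 0.79 for Tlr13 (0.26 to 1.31, adjusted p = 0.255) and 0.89 for Tlr2 (0.27 to 1.51, adjusted p = 0.286). They were 0.40 for Unc93b1, 0.51 for Tlr13 and 0.40 for Tlr2 without SAH mice 3 and 4 and Sham mouse 7.

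Against Naive mice, Unc93b1 and Tlr1 were called higher and 0 genes lower, where 2.03% of all genes were called higher and 0.965% lower (2.99% in all). The log2 fold change was 0.54 for Unc93b1 (95% interval 0.31 to 0.78, adjusted p = 0.0244 by edgeR) and 1.13 for Tlr1 (0.51 to 1.76, adjusted p = 0.0767). The Unc93b1 call was lost without Naive mouse 9 (0.51, adjusted p = 0.133). The Tlr1 call was lost in 7 of the 10 fits that left out 1 mouse, with values of 1.02 to 1.38 over these fits, and in the fit without the 3 mice rich in choroid plexus markers (1.26, adjusted p = 0.124). DESeq2 called Unc93b1 and Tlr13 but not Tlr1 (adjusted p = 0.153), and the fit without a filter called all 3. In edgeR, Tlr13 and Tlr2 gave 0.88 (adjusted p = 0.112) and 0.93 (adjusted p = 0.154), or 0.51 (adjusted p = 0.432) and 0.63 (adjusted p = 0.498) without SAH mice 3 and 4 and Sham mouse 7.

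Between Sham and Naive mice, 0 of the 40 genes were called, with 0 at an unadjusted p under 0.05 and 0 by DESeq2, where 0.00661% of all genes (1 gene) were called and 2.02% had an unadjusted p under 0.05. The log2 fold changes of Sham against Naive ranged from -0.62 for Ly96 to 0.73 for Tlr8, with a median of 0.03. Tlr1 had 0.57 (95% interval -0.12 to 1.26), beside 0.56 (-0.0094 to 1.14) in SAH against Sham and 1.13 (0.51 to 1.76) in SAH against Naive.

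Genes around the pathway were taken from 6 further lists, with the shares of 3.13% higher and 1.54% lower over all genes as background. Among the 13 genes of receptor trafficking and cleavage, 3 rose and 0 fell. Ctss, the endosomal protease cathepsin S, rose from a control mean of 58.8 ± 5.24 CPM (SD, n = 6) to a SAH mean of 98.5 ± 24.8 CPM (SD, n = 4), with the log2 ratio at 0.74 (SE 0.13, adjusted p = 0.00764 by edgeR). Pld4, an endosomal nuclease that degrades TLR9 ligands, rose by 0.45 on the log2 scale (adjusted p = 0.0469), and Ctsb, which encodes cathepsin B, by 0.13 (adjusted p = 0.0992). The Ctsb call was lost in 9 of the 10 fits that left out 1 mouse, and the Pld4 call in 1, without SAH mouse 4. With Sham or Naive mice alone as control, neither Pld4 nor Ctsb was called. The receptor chaperone genes Hsp90b1 and Cnpy3 had log2 fold changes of 0.20 (adjusted p = 0.195) and 0.040 (adjusted p = 0.684).

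Of the 23 genes that relay the signal, 1 rose and 0 fell. Irf7, the transcription factor that drives type I interferon downstream of TLR7 and TLR9, had 1.5, 1.39 and 1.49 CPM in Naive, 1.49, 0.919 and 0.885 CPM in Sham and 4.88, 3.27, 5.66 and 8.11 CPM in SAH. The groups did not overlap, and SAH mouse 4 was the highest. The log2 ratio of 2.10 (SE 0.24, adjusted p = 0.00084 by edgeR) was called under all 20 alternatives run for this comparison. Irf3 and Irf5 had log2 fold changes of 0.0094 (adjusted p = 0.979) and 0.15 (adjusted p = 0.679).

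Of 14 tested genes that restrain the pathway, 1 rose and 1 fell. Dusp1, a phosphatase that inactivates p38 and JNK, fell from a control mean of 25.2 ± 2.84 CPM (SD, n = 6) to a SAH mean of 15.4 ± 3.11 CPM (SD, n = 4), with the log2 ratio at -0.71 (SE 0.12, adjusted p = 0.00682 by edgeR). Every SAH mouse (11.6 to 19.1 CPM) was below every control mouse (22.2 to 29.1 CPM). Within control, every Sham mouse (22.2 to 23.3 CPM) was below every Naive mouse (26.6 to 29.1 CPM), and the log2 ratio of SAH against Sham was -0.57. Cyld, a deubiquitinase, rose by 0.18 on the log2 scale (adjusted p = 0.0678), a call that was lost in 7 of the 10 fits that left out 1 mouse.

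Of 22 NF-kB target genes, 12 passed the filter, 5 rose and 0 fell. Of these, Lcn2 and Cxcl10 (at most 9 and 11 counts in control) passed the filter through the SAH mice in which they are high, so their part in the count is no support, and with at least 10 counts in every mouse 3 of 7 rose. Icam1, an endothelial and microglial adhesion molecule, had 1.32 to 1.99 CPM in control and 2.71, 2.43, 3.18 and 3.12 CPM in SAH, without overlap (log2 fold change 0.80, SE 0.15, adjusted p = 0.0131 by edgeR). Irf1 rose from 5.68 ± 0.614 CPM to 8.46 ± 1.45 CPM (log2 fold change 0.57, adjusted p = 0.0193). Lcn2, a secreted lipocalin of reactive astrocytes and myeloid cells, rose by 3.74 on the log2 scale (adjusted p = 0.0150), with SAH mouse 3 at 4.60 CPM and the other SAH mice at 0.63 to 1.02 CPM. Cxcl10 (1.36, adjusted p = 0.0625) and Birc3 (0.61, adjusted p = 0.0820) also rose, and the call was lost in 3 of the 6 fits without 1 mouse that tested Cxcl10 and in 8 of 10 for Birc3.

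The classical inflammatory targets were scarce. Tnf, Il1b, Il6, Ccl2, Ccl5, Cxcl1, Cxcl2, Sele, Tnip3 and Cd40 did not pass the filter on low counts in SAH against control. Tnf had 0 to 1 counts in control and 0 to 3 in SAH mice, Il6 had 0 to 3 and 1 to 2, and Il1b had 2 to 8 and 5 to 9. Ccl2 had 0 to 2 counts in control and 5 to 13 in SAH, and Ccl5 had 0 to 4 and 10 to 39, without overlap in either. In the fit of the 3 groups Ccl5, a chemokine for T cells and monocytes, passed the filter and was called higher in SAH against Sham (log2 fold change 4.68, SE 0.84, adjusted p = 0.0471 by edgeR) and against Naive (3.65, SE 0.75, adjusted p = 0.0292). It passed that filter only through the SAH mice, in which it is high. At such counts a small difference in Tnf or Il6 was not detectable. The abundant targets Vcam1, Ptgs2 and Sod2 had log2 fold changes of 0.14, 0.11 and -0.0043 with adjusted p-values of 0.348, 0.429 and 0.965.

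Of 11 genes of endogenous TLR ligands, 5 were tested, 1 rose and 0 fell. Bgn, which encodes the matrix proteoglycan biglycan, had 12.5 to 16.9 CPM in control and 32.1, 27.1, 20.5 and 31.8 CPM in SAH, without overlap (log2 fold change 0.88, SE 0.11, adjusted p = 0.00201 by edgeR). Hmgb1, a nuclear protein released by dying cells, had 85.2 ± 4.76 CPM (SD, n = 6) and 83.5 ± 6.15 CPM (SD, n = 4), with the log2 ratio at -0.031 (adjusted p = 0.801). S100a8 and S100a9 did not pass the filter. Of 12 tested genes of related receptors, Tnfrsf1a (0.39, adjusted p = 0.0643) and Tnfrsf1b (0.45, adjusted p = 0.0868), the TNF receptors, rose and Il1rap, the accessory chain of the IL-1 receptor, fell by 0.20 on the log2 scale (adjusted p = 0.0571). With 1 mouse left out, the calls of Tnfrsf1a and Tnfrsf1b were each lost in 7 of 10 fits and that of Il1rap in 5 of 10.

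**Figure D5:**
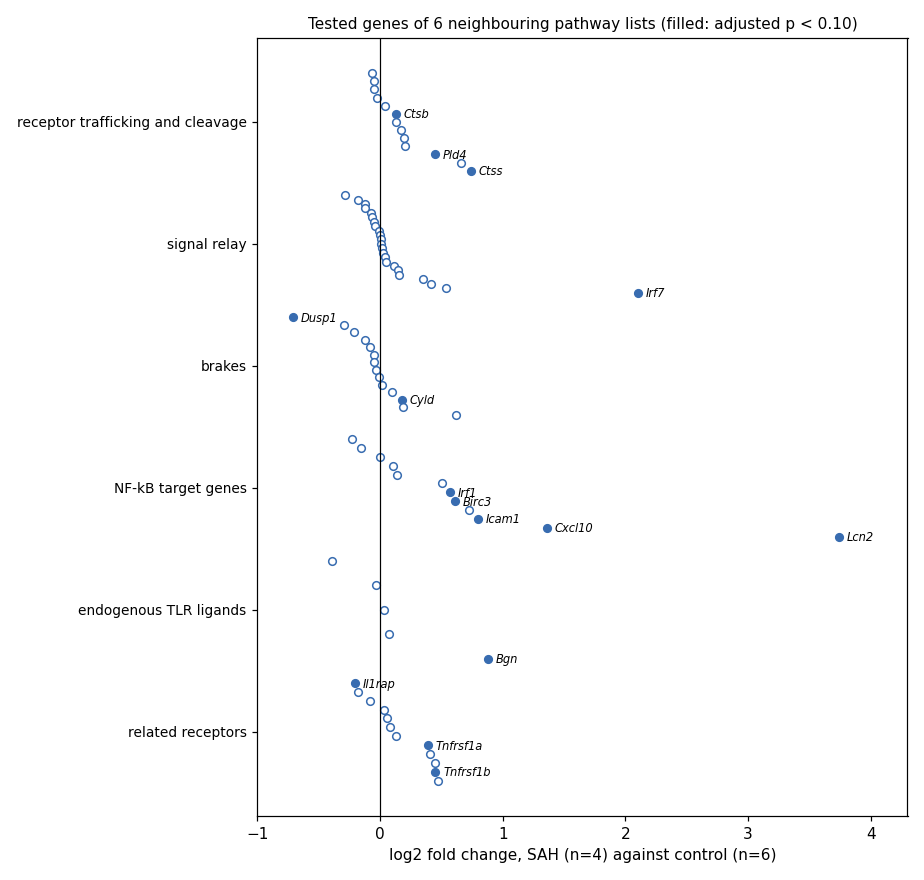
Log2 fold change of SAH (n = 4) against control (n = 6) for the tested genes of 6 lists around the pathway, 1 point per gene, with filled and named points for an adjusted p under 0.10. Lcn2 (3.74) and Irf7 (2.10) lie furthest to the right, Dusp1 (-0.71) furthest to the left, and most points of the signal relay lie close to 0.

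Without SAH mice 3 and 4 and Sham mouse 7, the calls of Ctss, Irf7, Dusp1, Irf1 and Bgn held, and those of Ctsb, Pld4, Cyld, Icam1, Birc3, Il1rap, Tnfrsf1a and Tnfrsf1b did not (Icam1 0.63, adjusted p = 0.206). The value of Ctss was then 0.46 (adjusted p = 0.0104) and that of Tnfrsf1b 0.23 (adjusted p = 0.633). Cxcl10 and Lcn2 were also called there, but passed the filter of that fit only through the SAH mice in which they are high. Against Sham mice in the fit of the 3 groups, Irf7 (2.32, adjusted p = 0.0113 by edgeR), Bgn (0.87, adjusted p = 0.0412) and Dusp1 (-0.57, adjusted p = 0.0874) were called, and Ctss (0.66, adjusted p = 0.110), Icam1 (0.82, adjusted p = 0.110) and Irf1 (0.49, adjusted p = 0.212) were not. With Sham mice alone as control and no Naive mice in the fit, Irf7 was the 1 call of these 15 that held (adjusted p = 0.0804), and Bgn (0.87, adjusted p = 0.144) and Dusp1 (-0.56) kept their direction only.

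Markers of the cells that carry these receptors were read beside the called genes. Of 11 microglial markers 2 rose (Csf1r and Trem2), with a median log2 ratio of 0.077, and the list summed to 350.4 to 394 CPM in control and to 424, 379, 346 and 454 CPM in SAH mice 1 to 4. Of 9 tested markers of border-associated macrophages 7 rose (Mrc1, Cd163, Pf4, F13a1, Ms4a7, Folr2 and Siglec1, of which Folr2 had at most 9 counts in control), and the list summed to 7.11 to 13.1 CPM in control and to 26.3, 20.6, 22.4 and 24.1 CPM in SAH. The macrophage sums did not overlap between SAH and control mice, and those of microglia did. Within control, the macrophage sums were 7.11 to 8.48 CPM in Naive and 10.98 to 13.1 CPM in Sham mice. Of the 9 macrophage markers, 3 were called higher against Sham (Mrc1, Cd163 and F13a1) and 6 against Naive. All 9 were above 0 against Sham, with a median log2 ratio of 1.23. In Sham against Naive 0 were called, and all 9 were above 0 with a median log2 ratio of 0.54.

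Monocyte markers, of which 2 were tested and 1 (Fn1) rose, summed to 75.7 to 103 CPM in control and 105 to 144 CPM in SAH. Nearly all of this sum was Vcan (30.6 and 32.3 CPM) and Fn1 (54.1 and 87.2 CPM), and vascular and meningeal cells also make fibronectin, so the sum does not measure monocytes alone. The other 6 markers, such as Ccr2 and Ly6c2, had group means of at most 0.803 CPM and did not pass the filter in SAH against control. In the fit of the 3 groups 3 of the 8 monocyte markers were tested, with log2 ratios of up to 2.32 against Sham and 2.60 against Naive. Fn1 was called higher against Sham, and 0 of the 3 were called against Naive. Neutrophil markers summed to at most 1.09 CPM in any mouse, T and NK cell markers to at most 0.40 CPM and B cell markers to at most 0.55 CPM, and 0 genes of these 3 lists passed the filter. Endothelial markers (3 of 10 rose, Pecam1, Cdh5 and Flt1) summed to 159 to 210.3 CPM in control and 188 to 311 CPM in SAH. Markers of meningeal fibroblasts, which also express Bgn, rose in 9 of 10 and summed to 145 to 191 CPM in control and 199 to 391 CPM in SAH. Their sums were 145 to 155 CPM in Naive and 184 to 191 CPM in Sham mice. Against Sham, 3 of these 10 were called higher (Lum, Col1a2 and Igf2). In Sham against Naive 0 were called, and all 10 were above 0 with a median log2 ratio of 0.45. Of 10 astrocyte markers 1 rose (Gfap), and of 10 choroid plexus markers 0 were called in SAH against control, although all 10 were above 0 with a median log2 ratio of 1.16 (0.58 to 2.06), and 2 (Ttr and Kcnj13) were called higher against Naive. The choroid plexus median was 0.52 in SAH against Sham and 1.98 in Sham against Naive, with 0 called in either. The part of these cells, choroid plexus included, in the differences of Unc93b1, Tlr13, Tlr2, Irf7 and Bgn was not tested. The globin genes Hba-a1, Hba-a2, Hbb-b1 and Hbb-b2 were listed at 0 in every mouse, so they do not measure blood in the samples.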

How the data were processed

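Hippocampal RNA was sequenced in 10 mice (SAH n = 4, Sham n = 3, Naive n = 3). The authors prepared stranded total RNA libraries after ribosomal RNA depletion, aligned read pairs to mm9 with STAR and counted uniquely mapped pairs per gene name with featureCounts 1.6.2. The deposited values are whole-number counts without normalization. Here, counts were scaled by TMM to CPM and fitted with edgeR 4.0.16 in R 4.3.3 (quasi-likelihood test, filterByExpr with a minimum count of 10 and a total of 15, Benjamini-Hochberg adjustment over all genes tested, threshold 0.10). SAH against control was a 2-group fit, and pairwise contrasts came from a 3-group fit. Standard errors were the log2 fold change divided by the square root of F, with 95% intervals from the t distribution. DESeq2 1.42.0 was an alternative, and the scripts were tested on simulated data. Depth was 19743388 to 27254655 counts per mouse, so genes under about 10 counts were measured with wide counting error.

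Every one of the 41 genes was named, and from the other lists the genes past the threshold in SAH against control together with examples that were chosen after their values were seen. Members and lists were chosen with earlier results of these data known. Alternatives were DESeq2, scaling by DESeq2's size factors or by library size, a fit without the filter, a minimum of 10 counts in each mouse, a threshold of 0.05, Sham or Naive mice alone as control, the 3 groups with Sham and Naive averaged, only the groups compared, and fits without any 1 mouse. Leaving out the 3 mice with choroid plexus sums over 500 CPM was added after the data were seen. Promoters are from RefSeq (GRCm38.p6), whereas gene positions are those of the count tables (mm9). Because counting used strand, Nfkb2, Ikbkg and Nfkbib were separated from genes on the opposite strand. Irak1 and Chuk share their strand with small RNA genes or predicted genes whose listed span overlaps theirs. For Chuk these are gene names that also overlap Nfkb2, so they need not lie within Chuk. A further marker gene is not reported here, and the marker values were computed without it.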

Additional observations from a re-analysis of the deposited data

Results flagged for a closer look

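Among 108 groups of values of the 41 genes and the called pathway genes, 7 had 1 mouse whose distance to the nearest other mouse took up most of the range of its group (Dixon's criterion), where chance gives about 5% of groups. Of these, 4 were SAH mouse 3. It had 15.9 CPM for Tlr7, with 5.27 CPM in the next SAH mouse, 48.1 CPM for Nfkbia, with 26.3 CPM in the next, and 4.60 CPM for Lcn2, with 1.02 CPM in the next. For Il1rap it was the lowest at 56.1 CPM, with 62.6 CPM in the next. SAH mouse 4 had 3.64 CPM for Nfkb2, with 2.54 CPM in the next SAH mouse. Among control mice, Sham mouse 7 had the highest Ly86 at 13.5 CPM, with 11.9 CPM in the next, and Naive mouse 10 had the lowest Tbk1 at 50.0 CPM, with 53.8 CPM in the next.

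Over all 14993 genes tested, a SAH mouse stood apart in this sense for 7.13%, with SAH mouse 3 the highest for 2.61% and the lowest for 2.13%. Beside Nfkbia in SAH mouse 3, Psma6 had 87.7 CPM against 69.9 to 81.1 CPM in the other mice, and Ralgapa1 had 252 CPM against 224 to 246 CPM.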

How the results depend on the processing

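For SAH against control, the count of 3 genes called higher became 0 with Sham mice alone as control, 1 with Naive mice alone and 5 with the 3 groups fitted and Sham and Naive averaged (Unc93b1, Tlr2, Tlr1, Tlr13 and Tlr8, or 4 without Tlr8, which passed the filter only through the SAH mice). It was 2 to 5 with each mouse left out, the 5 arising without SAH mouse 1 or SAH mouse 2. Without SAH mouse 4, of the 3 genes only Unc93b1 kept its call (adjusted p = 0.0301 by edgeR), with 0.171 for Tlr2 and 0.129 for Tlr13, and the other call was Tlr8, again through the SAH mice. Against Sham, the count of 0 became 1 with DESeq2 and 1 without a filter, and was 0 to 1 with each mouse left out (1 without SAH mouse 2 or 3). Against Naive, the count of 2 became 1 at an adjusted p under 0.05, 1 with at least 10 counts in every mouse and 1 with only the compared groups, was 2 with DESeq2 (Unc93b1 and Tlr13) and 3 without a filter (Unc93b1, Tlr1 and Tlr13), and was 0 to 3 with each mouse left out (0 without Naive mouse 9). Of 775 values of single members in SAH against control under an alternative, 720 kept direction and side of the threshold, 12 lost the call, 6 gained it and 37 reversed, in 14 members whose log2 fold change was at most 0.31 in size. With Naive mice alone as control, Tlr5 became 0.11, Irak4 -0.042 and Nfkbiz -0.0031, and with Sham mice alone Nfkbib became -0.0083 and Nfkbie -0.018. With each mouse left out, the ranges were -0.20 to 0.095 for Tlr5, -0.070 to 0.13 for Irak4, -0.035 to 0.079 for Traf6, -0.019 to 0.11 for Ikbkb, -0.015 to 0.056 for Ikbkg, -0.045 to 0.11 for Chuk, -0.047 to 0.090 for Rel, -0.0067 to 0.065 for Nfkbib, -0.044 to 0.073 for Nfkbie and -0.031 to 0.18 for Nfkbiz. For Sham against Naive they were -0.19 to 0.21 for Tlr2 and -0.044 to 0.37 for Tlr13. Without SAH mice 3 and 4 and Sham mouse 7, reversed values were 0.082 for Tlr5, -0.24 for Ly96, -0.0089 for Ticam2, -0.025 for Irak1, -0.13 for Irak4, -0.028 for Traf6, -0.067 for Ikbkb, -0.030 for Chuk, -0.087 for Rel, -0.0091 for Nfkbib, -0.081 for Nfkbiz and 0.056 for Tnfaip3. The cause of these changes was not tested, beyond the smaller number of mice where mice were left out.

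Over all genes in SAH against control, 470 higher and 231 lower became 277 and 92 at an adjusted p under 0.05, 632 and 398 with DESeq2, 12 and 0 with Sham alone, 201 and 81 with Naive alone, and 257 and 73 without the 3 mice, and were 223 to 686 and 85 to 407 with each mouse left out (lowest without SAH mouse 4, highest without SAH mouse 2). Against Sham, 80 and 29 became 225 and 77 with DESeq2, 134 and 48 without a filter, 41 and 8 at 0.05, and 12 and 0 with only the 2 groups, and were 6 to 166 and 0 to 55 with each mouse left out (lowest without Sham mouse 6). Against Naive, 307 and 146 became 467 and 277 with DESeq2, 186 and 74 at 0.05, and 201 and 81 with only the 2 groups, and were 87 to 443 and 22 to 240 with each mouse left out (lowest without Naive mouse 8). No paired analysis was possible because the mouse numbers differ between the groups. Counts below about 10 per mouse, as for Tlr8, Tlr11, Tnf and Il6, limit what can be said of these genes.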
